A study of Mus musculus with 8 samples.

Results

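Histone H3 methylated on lysine 9 is the hallmark of heterochromatin, the compact and largely silent part of the genome. Regions that carried both the dimethylated form (H3K9me2) and the trimethylated form (H3K9me3) were examined in mouse embryonic fibroblasts (MEFs) with and without the histone acetyltransferase HAT1. A region was a member when an H3K9me2 region shared at least 1 bp with an H3K9me3 region on chromosomes 1 to 19 or X. The dense satellite loci of chromosome 2 (98660000 to 98670000) and of chromosome 9 (below 3040000) were left out. This rule found 718 of the 1983 H3K9me2 regions and, as their partners, 713 of the 14515 H3K9me3 regions, in 720 pairs. A further 78 overlapping H3K9me2 regions fell outside the rule. The members were chosen by the called regions of both marks, that is by signal in these libraries, so the joint presence of the marks is not a finding.

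Both marks were profiled by ChIP-seq in SV40 T immortalized MEFs derived from C57bl6 HAT1+/+ embryos (HAT1 WT) or HAT1-/- embryos (HAT1 KO), with human Dbt myoblasts added as a spike-in. Each genotype and mark had 2 libraries, named KO1, KO2, WT1 and WT2, which gives 8 in all. Per the labels, 2 embryos stood behind each genotype, and all cells share the immortalized state. Whether the H3K9me2 and H3K9me3 libraries of the same number came from the same cells was not stated, and the deposited values hold no input library. Library totals lay between 5422405 and 8421762 reads for H3K9me2 and between 4198682 and 5810913 for H3K9me3, and both KO libraries were smaller than both WT libraries in each mark. Hat1 itself, on chromosome 2 from 71388958 to 71441622, held no member, and the nearest one lay 9269 kb away, so the members give no check of the genotype.

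H3K9me3 is laid down mainly by the SUV39H enzymes at pericentromeric satellite repeats and by SETDB1 at retroelements and zinc finger gene clusters, and it is read by the HP1 proteins. H3K9me2 is laid down mainly by G9a and GLP and is spread broadly over silent, lamina-associated chromatin. HAT1 acetylates newly made histones before they are deposited behind the replication fork.

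The sequences under the members that the results turn on are shown here as they stand on the plus strand of GRCm38.p6, the assembly of mm10, with 1-based coordinates. The first 2 regions carried the most signal of both marks per kb, and capitals mark the bases that aligned to the chromosome 2 satellite locus.
Gm33838 satellite-like, chr9:35305254-35305553: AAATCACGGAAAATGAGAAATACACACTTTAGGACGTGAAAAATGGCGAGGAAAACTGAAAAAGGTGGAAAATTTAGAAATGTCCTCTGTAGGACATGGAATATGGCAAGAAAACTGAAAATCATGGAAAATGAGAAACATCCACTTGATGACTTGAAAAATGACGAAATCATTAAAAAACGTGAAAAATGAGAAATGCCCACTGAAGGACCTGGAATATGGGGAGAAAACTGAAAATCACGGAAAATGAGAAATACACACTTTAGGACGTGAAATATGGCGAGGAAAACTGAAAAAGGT
chromosome 12 satellite-like, chr12:3109847-3110146: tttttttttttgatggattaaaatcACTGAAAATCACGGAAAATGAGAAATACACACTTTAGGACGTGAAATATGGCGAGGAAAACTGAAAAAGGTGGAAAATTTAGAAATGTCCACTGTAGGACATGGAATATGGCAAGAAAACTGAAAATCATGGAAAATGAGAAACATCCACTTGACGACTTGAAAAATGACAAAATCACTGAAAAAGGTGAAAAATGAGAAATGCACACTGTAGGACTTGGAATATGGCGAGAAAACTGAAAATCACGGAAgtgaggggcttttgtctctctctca
The third region, in an intron of the cell adhesion gene Chl1, was the one member that held a match to the CENP-B box (NTTCGNNNNANNCGGGN, either strand, in capitals here), the binding motif of a centromere protein. Over all H3K9me2 regions, 0.202% held one.
Chl1 intron, CENP-B box in capitals, chr6:103649112-103649231: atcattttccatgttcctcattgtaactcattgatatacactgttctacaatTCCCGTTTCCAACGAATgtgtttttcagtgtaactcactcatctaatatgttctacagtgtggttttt
The next member was lower in KO in both marks after TMM scaling and was a run of the 5-base unit ccatt. In this and in the remaining sequences capitals mark CpG dinucleotides, the site of DNA methylation.
near 4930517M08Rik, chr17:4626238-4626537: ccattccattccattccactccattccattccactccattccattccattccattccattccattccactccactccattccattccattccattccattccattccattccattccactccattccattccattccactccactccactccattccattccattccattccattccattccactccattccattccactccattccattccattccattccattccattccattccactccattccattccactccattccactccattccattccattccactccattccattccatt
The next 2 members were higher in KO after the same scaling, the first in H3K9me2 and the second in H3K9me3, and both were tandem repeats.
Tmem267 intron, chr13:119602263-119602562: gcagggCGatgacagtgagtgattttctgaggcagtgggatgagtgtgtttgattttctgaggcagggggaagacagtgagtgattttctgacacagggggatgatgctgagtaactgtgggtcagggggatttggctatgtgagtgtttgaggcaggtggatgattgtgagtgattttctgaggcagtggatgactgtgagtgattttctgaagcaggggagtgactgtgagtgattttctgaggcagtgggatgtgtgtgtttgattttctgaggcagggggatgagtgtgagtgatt
Rps6kc1 intron, chr1:190902739-190902978: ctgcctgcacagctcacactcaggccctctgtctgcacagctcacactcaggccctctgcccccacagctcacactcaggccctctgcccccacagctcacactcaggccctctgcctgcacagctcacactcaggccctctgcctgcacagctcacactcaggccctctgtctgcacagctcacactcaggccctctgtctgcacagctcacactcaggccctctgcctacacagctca
The last sequence came from the middle of the widest member, an rRNA-like locus on chromosome 17, which was rich in CpG.
rRNA-like locus, chr17:39845043-39845342: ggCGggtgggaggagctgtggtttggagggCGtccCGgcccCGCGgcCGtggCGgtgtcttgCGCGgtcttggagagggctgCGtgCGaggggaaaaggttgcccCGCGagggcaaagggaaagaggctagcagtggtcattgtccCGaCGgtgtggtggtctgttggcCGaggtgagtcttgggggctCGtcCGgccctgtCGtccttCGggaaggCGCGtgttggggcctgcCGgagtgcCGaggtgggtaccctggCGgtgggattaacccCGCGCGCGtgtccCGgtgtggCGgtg
These stretches show satellite, simple tandem and CpG-rich sequence within the members. Of the 718 H3K9me2 members, 17 aligned to the chromosome 2 satellite locus, against 0 of the 1184 H3K9me2 regions without H3K9me3, and 12 held at least 2 telomere hexamers in a row (TTAGGG, either strand), against 3. Over all H3K9me2 regions the share with the telomere motif was 0.807%. Of the partners, 17 of 713 were satellite-like against 1 of 13636 H3K9me3 regions without H3K9me2. These classes were defined after the values had been seen.

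The members had higher median levels than the other regions of both tables, but the ranges overlapped. The lower quartile of members was 9.45 RPM per kb in H3K9me2 and 12.2 in H3K9me3. The upper quartile of the other regions was 9.98 and 12.6. The median H3K9me2 level was 16.9 RPM per kb (reads scaled to the library total, per kb of region, mean of 4 libraries) at members and 8.55 at H3K9me2 regions without H3K9me3. For H3K9me3 it was 21.9 at the partners and 10.5 at regions without H3K9me2. In counts, the median H3K9me2 member held 35.5 and 36.5 reads in KO1 and KO2 and 32 and 39 in WT1 and WT2. The median partner held 40 and 45 H3K9me3 reads in KO and 36 and 51 in WT. These levels belong to the choice of members, since strong regions are more readily called in both tables.

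The signal was concentrated in few places. Of the reads in members, the top 10 members by count took 44.7% to 50.2% in the H3K9me2 libraries and 49.1% to 54.4% in the H3K9me3 libraries. At the satellite-like member in Gm33838, a lincRNA gene on chromosome 9 (35305095 to 35305682), H3K9me2 counts were 25622 and 23439 in KO and 17809 and 21021 in WT. Its H3K9me3 counts were 26509 and 31196 in KO and 21581 and 27840 in WT. In unscaled H3K9me2 counts both KO libraries lay above both WT libraries, although the KO libraries were the smaller ones. In unscaled H3K9me3 counts WT2 lay between the KO libraries. The H3K9me3 edgeR log2 fold change was -0.40 with TMM and 0.60 with library totals, and neither passed (adjusted p = 0.765 and 0.234). The second satellite-like member lay on chromosome 12 (3109746 to 3110217), with H3K9me2 counts of 9865 and 8903 in KO and 7363 and 8454 in WT. The third, in the Chl1 intron on chromosome 6, had H3K9me2 counts of 9203 and 8143 in KO and 5648 and 4659 in WT, and H3K9me3 counts of 10072 and 12722 in KO and 4973 and 7878 in WT. Here the KO counts lay above the WT counts in both marks. The next by level were a member in Gm21738 on chromosome 14 (19418563 to 19418987), with H3K9me2 counts of 2777 and 2511 in KO and 1499 and 2111 in WT, and one in an intron of Fam227b on chromosome 2 (126147692 to 126148133), with 1784 and 1825 in KO and 2884 and 2583 in WT. In these unscaled counts the genotypes were apart at both, with KO the higher at the first and the lower at the second. The Gm21738 member was not called with TMM (edgeR log2 fold change 0.31, adjusted p = 0.748) and was called higher with library totals (adjusted p = 0.0105). Its unscaled H3K9me3 counts overlapped, at 2772 and 3808 in KO and 1650 and 3339 in WT. With TMM the Fam227b member was called lower in H3K9me2 (edgeR log2 fold change -0.83, adjusted p = 0.0118, and 0.748 with library totals).

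The level of one mark followed that of the other over the 720 pairs (Pearson's r = 0.94 and Spearman's rho = 0.91 on log2 RPM per kb, as a description across regions that share libraries and widths). H3K9me3 was above H3K9me2 on this scale at 576 pairs (80.0%), with a median log2 ratio of 0.43. The antibodies differ, so the ratio does not compare the abundance of the marks. The median ratio was 0.44 in KO and 0.37 in WT.

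**Figure D1:**
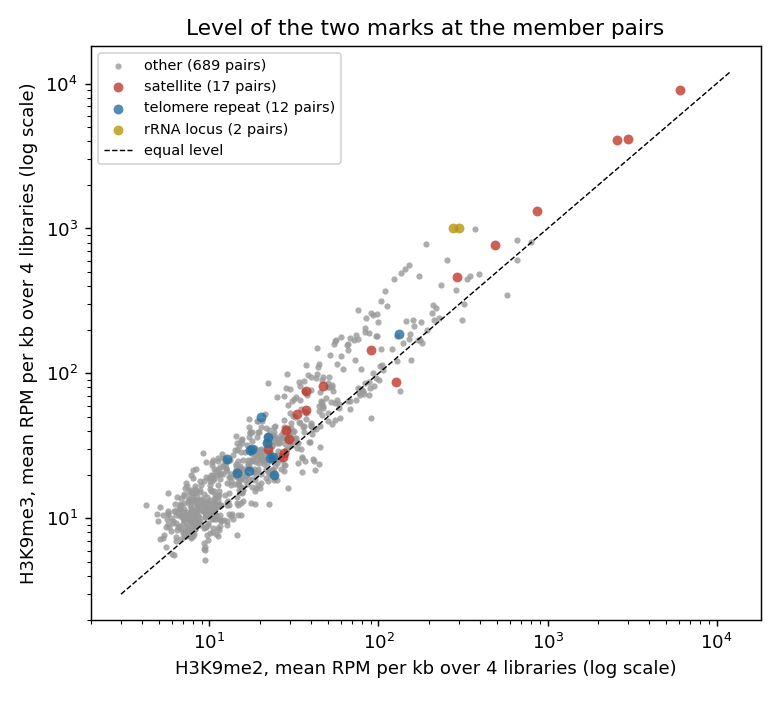
Mean RPM per kb over 4 libraries for H3K9me2 (x axis, log scale) and H3K9me3 (y axis, log scale) at the 720 pairs, with satellite-like, telomere repeat and rRNA-like pairs coloured and the dashed line marking equal levels. The pairs run along the line over more than 3 orders of magnitude, and the highest 3 are satellite-like.

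Members were wider and held more peak summits than the rest. A wider region is more likely to share a base with another, so these differences belong in part to the choice of members. Median width was 334.5 bp against 256 bp in H3K9me2, with a maximum of 4155 bp, and 400 bp against 284 bp in H3K9me3, with a maximum of 5621 bp. Several summits were joined in 303 H3K9me2 members (42.2%) but in 27 regions without H3K9me3 (2.28%). In H3K9me3 the counts were 436 partners (61.2%) and 1381 other regions (10.1%). Exactly 4 summits, which is also the number of libraries per mark, were listed in 129 H3K9me2 members and 179 partners, and these summits spanned a median of 31 bp and 37 bp. The deposited tables do not say which library gave each summit. The nearest summits of the 2 marks were a median of 19 bp apart, and 490 pairs (68.1%) had summits within 50 bp. Pairs were chosen by overlap (median 285 bp), so close summits follow in part from the rule. The H3K9me3 partner was the wider region in 506 pairs (70.3%).

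Signal differed with the number of summits, which is part of how regions were called. Median H3K9me2 went from 10.4 RPM per kb at members with 1 summit to 57.1 at those with 4, and median H3K9me3 from 11.8 to 74.8. With 5 or more summits the median was higher again in the 31 H3K9me2 members, at 97.4, and lower in the 48 partners, at 56.4. The widest member was the locus on chromosome 17 (39843115 to 39847270) of the rRNA-related gene models AY036118, CT010467.1, Gm26917 and Gm42418. The member held 39 H3K9me2 summits and 44 H3K9me3 summits. Its H3K9me2 counts were 8358 and 7685 in KO and 5959 and 6031 in WT, and the H3K9me3 counts of its partner were 29737 and 30635 in KO and 32467 and 19804 in WT. The genotypes did not overlap in unscaled H3K9me2 counts, whereas in unscaled H3K9me3 counts KO lay between WT1 and WT2. The edgeR log2 fold change of the partner was -0.43 with TMM and 0.60 with library totals, and neither passed (adjusted p = 0.736 and 0.240). A neighbouring member of the same partner (39847440 to 39848677) had H3K9me2 counts of 2704 and 2395 in KO and 1968 and 2080 in WT.

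Other members with many summits or a large width lay between genes. The one on chromosome 15 from 75085489, near Gm28502, held 12 summits in each mark, and its H3K9me2 counts were 8122 and 7341 in KO and 5494 and 4514 in WT. The one on chromosome 4 from 118547217, near Tmem125, also held 12 in each, with H3K9me3 counts of 1286 and 1163 in KO and 1826 and 1611 in WT (edgeR adjusted p = 0.0444 with TMM). On chromosome 9 from 124256306, near Gm39469, H3K9me2 counts were 1438 and 1024 in KO and 657 and 837 in WT. On chromosome X from 170735871, near Gm15069, they were 129 and 117 in KO and 111 and 101 in WT. With TMM only the Tmem125 partner was called (lower), and its edgeR adjusted p was 0.829 with library totals. With library totals the H3K9me2 members near Gm28502 and Gm39469 were called higher in KO (edgeR adjusted p = 0.0146 and 0.000657). The H3K9me3 partner near Gm28502 was also called higher (edgeR adjusted p = 0.0340), and that near Gm39469 was not (0.278).

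**Figure D2:**
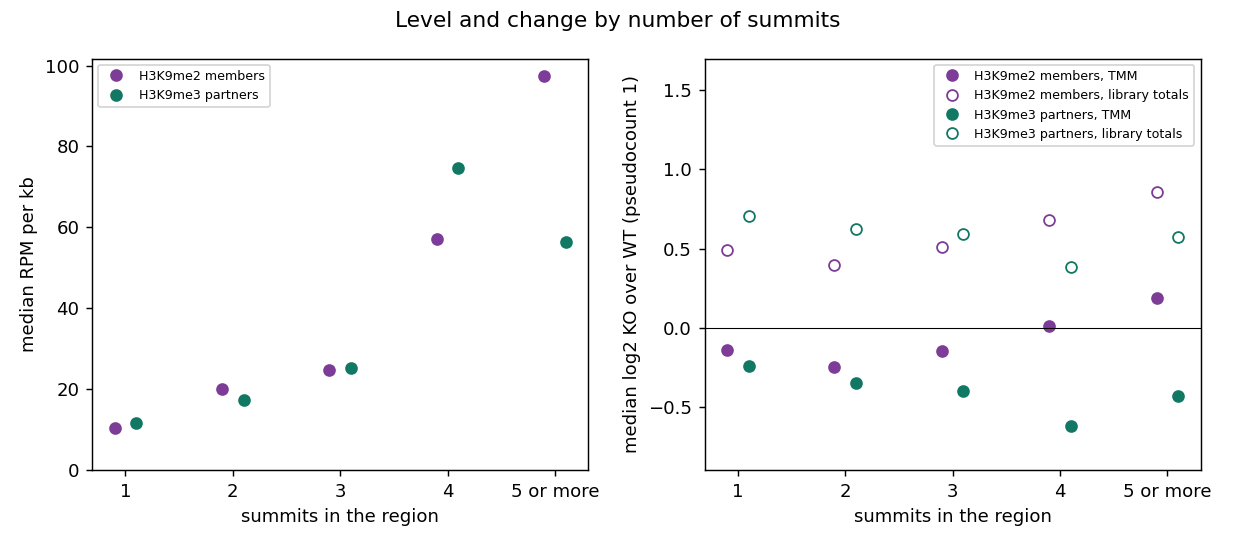
Left, median RPM per kb against the number of summits in the region. Right, median log2 change of KO over WT (pseudocount 1) under TMM (filled) and library totals (open) in the same classes. The level at 4 summits was 57.1 for H3K9me2 and 74.8 for H3K9me3, and every class lay above 0 with library totals.

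Members lay closer to genes than the other regions. A gene body was overlapped by 336 of 718 members (46.8%, 95% Wilson interval 43.2 to 50.5), against 396 of 1184 H3K9me2 regions without H3K9me3 (33.4%, 30.8 to 36.2). An annotated exon was overlapped by 84 members (11.7%) against 51 (4.31%), and a transcript start lay within 1 kb of 87 members (12.1%) against 57 (4.81%). The median distance to a transcript start was 11805 bp for members and 28467 bp for the others. The intervals treat neighbouring regions as independent, which clustered members are not. Much of this placement was in gene models without an established name. Predicted genes (Gm names) were overlapped by 114 members (15.9% against 7.01%) and RIKEN clone genes by 44 (6.13% against 2.45%).

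Known gene families made up a small part. Zinc finger genes of the Zfp type, which encode DNA-binding repressors, were overlapped by 12 members (1.67% against 0.253% of H3K9me2 regions without H3K9me3 and 0.880% of H3K9me3 regions without H3K9me2). Vomeronasal receptor genes held 7 members, immunoglobulin heavy chain variable segments 4, and the cytochrome pseudogene Cyp2c53-ps 3. Olfactory receptor, Speer and Skint genes held 1 each. For olfactory receptor genes this was 0.139% of members, against 0.760% of H3K9me2 regions without H3K9me3 and 0.755% of H3K9me3 regions without H3K9me2. None of the 26 imprinted genes and none of the 22 genes of the H3K9 methylation machinery and its readers that were looked up overlapped a member, and there was also none within 5 kb. Defensin, Pramel, Mup, Ugt, Sult, Serpin, protocadherin, histone, Rhox, Xlr, Slx, Mage, keratin, Scgb, Klk, Klr and H2 genes held none. At Zfp821 (chromosome 8, 109707212 to 109707642) the H3K9me2 counts were 232 and 247 in KO and 327 and 306 in WT, and at Zfp949 on chromosome 9 they were 84 and 83 in KO and 158 and 130 in WT. Neither member passed the test in either mark. Over the family, 3 of the 12 zinc finger partners were called lower in H3K9me3 with TMM (0.971% of all regions were). All 3 lay in Zfp640 on chromosome 13, where WT2 alone was high, as with counts of 8 and 10 in KO, 11 in WT1 and 103 in WT2. At the vomeronasal receptor gene Vmn2r114 H3K9me3 counts were 80 and 71 in KO and 49 and 31 in WT, and at Vmn2r32 they were 13 and 10 in KO, 4 in WT1 and 58 in WT2, and neither passed, while 1 of the 7 vomeronasal partners was called lower with TMM. At the 2 named members in Cyp2c53-ps H3K9me3 counts were 104 and 123 in KO and 78 and 66 in WT, and 103 and 106 in KO and 42 and 53 in WT, and neither passed. At Ighv8-5 they were 33 and 28 in KO, 15 in WT1 and 147 in WT2 (edgeR adjusted p = 0.0146), and at Ighv8-8 19 and 17 in KO, 11 in WT1 and 109 in WT2 (edgeR adjusted p = 0.00544), both with WT1 lowest and WT2 highest. With library totals neither call held (edgeR adjusted p = 0.197 and 0.146). The RIKEN gene 2700054A10Rik on chromosome 17 held members with H3K9me2 counts of 2140 and 1730 in KO and 1276 and 984 in WT, and of 1058 and 740 in KO and 586 and 425 in WT, which were apart, did not pass with TMM and were called higher with library totals (edgeR adjusted p = 0.000268 and 4.83e-05). Over all RIKEN genes, 4 of 44 partners were called lower in H3K9me3 with TMM.

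Members were clustered. They fell in 421 bins of 1 Mb, 333 of which held a single member, while 21 bins held 5 or more and 217 members between them. The first 5 bins by count held 104 members (14.5%). The bin at 20 Mb of chromosome 8 held 46, of which 15 overlapped the predicted gene Gm26804. The bin at 3 Mb of chromosome 11 held 16, of which 11 overlapped Sfi1, which encodes a centrin-binding protein of the centrosome. The bin at 147 Mb of chromosome 4, in which Zfp978, Zfp984 and Zfp985 lie, also held 16, with 12 in C230088H06Rik. The bin at 85 Mb of chromosome 1 and that at 66 Mb of chromosome 13 held 13 each, as did that at 19 Mb of chromosome 8, so the last places are a tie. Of the first 2 one had 7 members in C130026I21Rik and the other 4 each in Gm26754 and Zfp640.

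The sequence under the members was less often unique. A median of 58.7% of the 31-base words of an H3K9me2 member occurred once on chromosomes 1 to 19, X and Y, against 84.3% in H3K9me2 regions without H3K9me3. For H3K9me3 the medians were 60.3% and 72.9%. No word was unique in 59 H3K9me2 members (8.22%) and in 12 of the other regions (1.01%), while every word was unique in 73 members (10.2%). The median was 2.06% at the 46 members of the chromosome 8 array. How reads with several placements were handled is not stated, so counts at these members cannot be assigned to 1 copy. Median GC content was 48.8% at members against 49.4%, and 52.2% of the median member was soft-masked repeat against 61.9%. The zinc finger linker motif (ACNGGNGANAANCC, either strand) was found in 1 H3K9me2 member (0.139%) and in 0.151% of all H3K9me2 regions.

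The direction of the KO change across members depended on the scaling. Members held 2.70% and 2.53% of the H3K9me2 library reads in KO and 1.43% and 1.86% in WT, and for H3K9me3 the shares were 4.55% and 4.53% in KO and 3.16% and 3.15% in WT. The groups did not overlap in either mark. Reads in all regions took 9.53% and 9.02% of the H3K9me2 libraries in KO against 4.89% and 6.83% in WT, and 19.7% and 20.4% of the H3K9me3 libraries against 12.01% and 13.6%. Of those reads, members held 28.3% and 27.99% in KO and 29.2% and 27.2% in WT for H3K9me2, and 23.0% and 22.2% against 26.3% and 23.2% for H3K9me3, so their part of the region reads was not higher in KO. For the share of library reads the difference was 0.968 percentage points for H3K9me2 (2.61% ± 0.121 in KO and 1.64% ± 0.302 in WT, SD, n = 2) and 1.38 points for H3K9me3 (4.54% ± 0.0140 and 3.16% ± 0.00707). The exact two-sided permutation p was 0.333 in each mark, the smallest that 2 libraries against 2 allow. Without the 10 members with the most reads the differences were 0.420 and 0.498 points.

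The members' medians lay below those of the whole tables under either scaling, but the order depended on read count. Relative to library totals, the median log2 difference of KO over WT (pseudocount 1) was 0.59 at H3K9me2 members and 0.73 over all H3K9me2 regions, and 0.57 at H3K9me3 partners and 0.97 over all H3K9me3 regions. With TMM scaling, which sets the bulk of regions near no change, the medians were -0.06 at H3K9me2 members (0.09 over all regions) and -0.42 at partners (0.03 over all regions). With TMM, 334 of 718 H3K9me2 members (46.5%) and 210 of 713 partners (29.5%) were higher in KO, and with library totals 524 (73.0%) and 542 (76.0%). Among regions with a mean count of 50 or more the TMM medians were -0.06 at H3K9me2 members and -0.29 at the other H3K9me2 regions, and -0.60 at partners and -0.71 at the other H3K9me3 regions. With a mean count of 20 to 50 the order was the opposite, at -0.10 against -0.0026 and -0.38 against -0.25. Under 20 the medians were -0.02 against 0.27 in H3K9me2 and 0.22 against 0.19 in H3K9me3. The H3K9me2 median is given with no direction of its own, since it was 0.013 with TMM when WT2 was left out. At the 73 H3K9me2 members and 70 partners whose 31-base words all occur once the TMM medians were -0.39 and -0.55. The medians of such regions over the whole tables are not given, so these values are not read as particular to members. With counts in regions as library size the partner median was -0.07.

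After TMM scaling, the genotypes did not overlap, with KO the lower, at 176 H3K9me2 members (24.5%, where 16.7% of all regions did so) and with KO the higher at 125 (17.4%, where 20% did). Among partners the counts were 305 below (42.8%, where 19.1% did) and 73 above (10.2%, where 17.3% did). Both marks were below at 125 of the 720 pairs (17.4%) and above at 19 (2.64%). H3K9me2 was above and H3K9me3 below at 31 pairs, and the reverse held at 9. Pairs exist for members only, so these counts have no share over all regions beside them. The order against the other regions differed by read count. Among regions with a mean count of 50 or more, KO was the lower at 60.4% of partners and 65.7% of the other H3K9me3 regions, and at 36.6% of H3K9me2 members and 43.8% of the other H3K9me2 regions. With a mean count of 20 to 50 these shares were 38.8% against 32.0% and 18.9% against 21.6%, and under 20 they were 11.1% against 12.2% and 15.2% against 10.8%.

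Few of these differences passed the test. With TMM and edgeR's quasi-likelihood test (Benjamini-Hochberg FDR under 0.05 over all regions of the mark), 29 H3K9me2 members were lower in KO (4.04%), where 1.71% of all regions tested were, and 2 were higher (0.279%), where 0.202% were. Taking either direction, 1.92% of all H3K9me2 regions passed. In H3K9me3, 61 partners were lower (8.56%), where 0.971% of all regions were, and 2 were higher (0.281%), where 0.0276% were, and 0.999% of all regions passed in either direction. Of the 61, 31 had WT2 more than 2 times WT1 after scaling. Regions enter the rule by signal in these same libraries, so a region high in 1 library can be a member through it. The shares are therefore not independent of the choice of members. By an unadjusted edgeR p under 0.05, 113 H3K9me2 members were lower (15.7%, where 7.21% of all regions were) and 20 higher (2.79%, where 2.12% were), and 200 partners were lower (28.1%, where 8.16% were) and 8 higher (1.12%, where 0.985% were). Library totals alone gave the opposite split, with 66 H3K9me2 members higher and 3 lower (5.5% and 0.252% of all regions) and 19 partners higher and 8 lower (0.785% and 0.103% of all regions). In either direction these were 5.75% of all H3K9me2 and 0.889% of all H3K9me3 regions. The share called also differed by read count. Among regions with a mean count of 50 or more, 22 of 276 H3K9me2 members (7.97%) and 2 of 16 of the other H3K9me2 regions (12.5%) were called lower. In the same class 41 of 328 H3K9me3 partners (12.5%) and 19 of 213 of the other H3K9me3 regions (8.92%) were, whereas by the unadjusted p 121 of the 328 and 89 of the 213 were. With a mean count of 20 to 50, 17 of 232 partners (7.33%) and 42 of 3194 of the other H3K9me3 regions (1.31%) were called lower, as were 7 of 212 H3K9me2 members and 0 of 162 of the other H3K9me2 regions (25 and 8 by the unadjusted edgeR p). Under 20 it was 1.96% of partners and 0.127% of the other H3K9me3 regions.

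The number of calls also depended on single libraries, while the medians of the fitted log2 fold changes kept their sign. Without KO1, 0 members were called in either mark, where an unadjusted edgeR p under 0.05 was reached by 41 lower and 1 higher H3K9me2 members and by 88 lower and 5 higher partners. Without KO2, 0 H3K9me2 members (43 lower and 11 higher by the unadjusted p) and 2 partners were called. Without WT1 the numbers were 87 and 168, and without WT2 they were 42 and 94. The median edgeR log2 fold change over members was -0.09 in H3K9me2 and -0.48 in H3K9me3 with all libraries, -0.23 and -0.55 without KO1, -0.13 and -0.47 without KO2, -0.07 and -0.44 without WT1, and -0.05 and -0.30 without WT2. In these fits the lone library of a genotype is assumed to vary like the pair of the other genotype. The share of all regions called in these fits is not given, so the numbers are not read as particular to members.

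**Figure D3:**
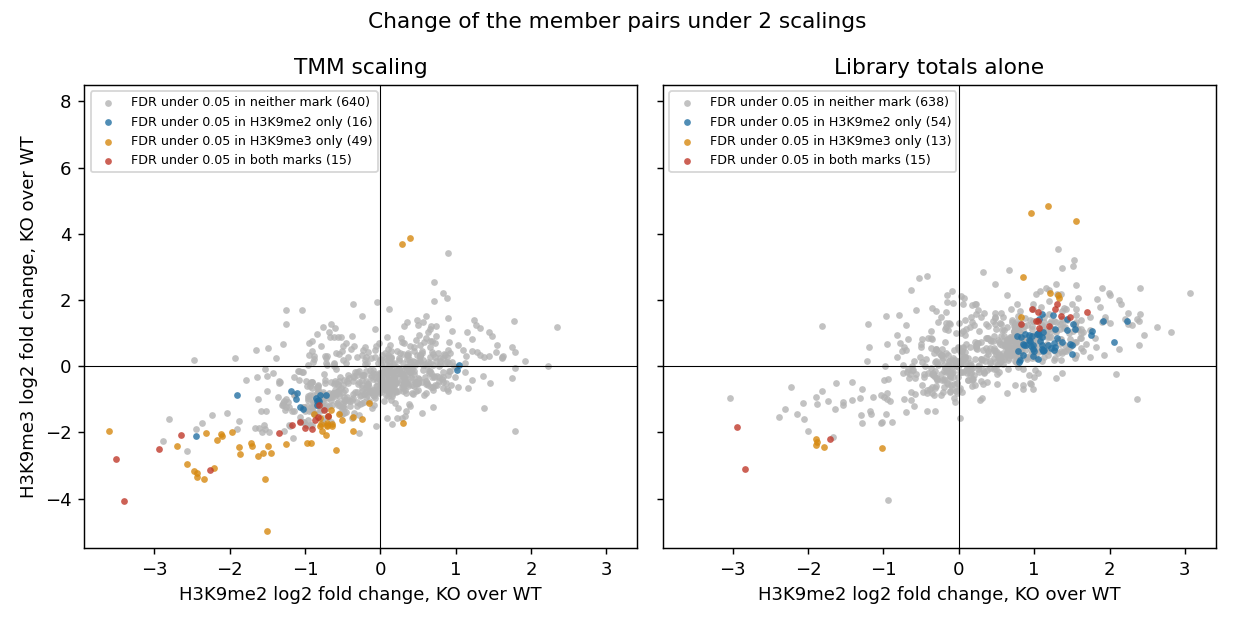
edgeR log2 fold change of KO over WT for H3K9me2 (x axis) and H3K9me3 (y axis) at the 720 pairs with TMM (left) and with library totals alone (right), coloured by the mark in which FDR was under 0.05. With TMM all 15 pairs called in both marks lie at lower left, and with library totals 12 of 15 lie at upper right.

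The lower calls were split by whether WT2 was more than 2 times WT1 after scaling, a split made after the values were seen. In 31 of the 61 lower partners it was, and 29 of these lay on chromosomes 7, 12 and 13. Their median H3K9me3 counts were 13 and 14 in KO, 15 in WT1 and 126 in WT2, before scaling. The split itself makes a call without WT2 unlikely in these 31 and favours one in the rest. The other 30 lower partners had median counts of 142.5 and 178 in KO and 371.5 and 322.5 in WT, a median of 4 summits and a median edgeR log2 fold change of -1.70. All 30 were called without WT2 and 28 without WT1. In H3K9me2 the split was 6 and 23. The 6 had median counts of 6.5 and 7.5 in KO, 10 in WT1 and 68.5 in WT2. The 23 had medians of 217 and 207 in KO and 368 and 298 in WT, and all 23 were called without WT2 and 18 without WT1. Neither side of the split kept a call without KO1, where edgeR called none in either mark, as given with the unadjusted counts for the fits that leave out a library. With library totals the median log2 fold change of these 23 was -0.19 and that of the 30 partners was -0.68.

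All 15 pairs called in both marks were lower in both with TMM. At the pair of most reads, a run of ccatt repeats on chromosome 17 (4626080 to 4626694, 8.28 kb from 4930517M08Rik), H3K9me2 counts were 1242 and 1226 in KO and 1772 and 1623 in WT. H3K9me3 counts were 1991 and 2788 in KO and 4005 and 4742 in WT. Both KO libraries were below both WT libraries in each mark, with edgeR log2 fold changes of -0.69 ± 0.21 (SE, adjusted p = 0.0482) and -1.51 ± 0.30 (adjusted p = 0.000396). With library totals the same changes were -0.03 (edgeR adjusted p = 0.967) and -0.50 (edgeR adjusted p = 0.276). Whether human spike-in reads are among the counts at this repeat was not tested.

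An intron of Dgki, which encodes a diacylglycerol kinase, held a member on chromosome 6 (36899243 to 36899486). Its H3K9me2 counts were 370 and 368 in KO and 702 and 558 in WT, and its H3K9me3 counts were 317 and 354 in KO and 841 and 751 in WT. The groups were apart in both marks, with edgeR adjusted p = 0.00201 in H3K9me2 and a log2 fold change of -1.88 ± 0.35 (SE, adjusted p = 7.38e-05) in H3K9me3. An intron of Atp7b, the copper-transporting ATPase, held one on chromosome 8 (22047159 to 22047403) with H3K9me2 counts of 154 and 156 in KO and 368 and 228 in WT, and H3K9me3 counts of 118 and 152 in KO and 326 and 272 in WT. Plxdc2, Sepsecs, Jph1 and Gm49445 held a further intronic member each, and those near Gm45063 and Gm3496 were intergenic. In these 6, H3K9me2 log2 fold changes lay between -1.34 and -0.74 and H3K9me3 changes between -2.02 and -1.17. With library totals the edgeR adjusted p-values of the 9 pairs described here lay between 0.129 and 0.967 in either mark, so that scaling ends these calls. At Jph1, which encodes a junctional membrane protein, the 2 regions shared 38 bp. As RPM, the KO libraries were the lower pair in H3K9me3 at all 9 of these pairs and in H3K9me2 at 6 of them. In the 5 pairs of fewest reads WT2 stood apart.

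**Figure D4:**
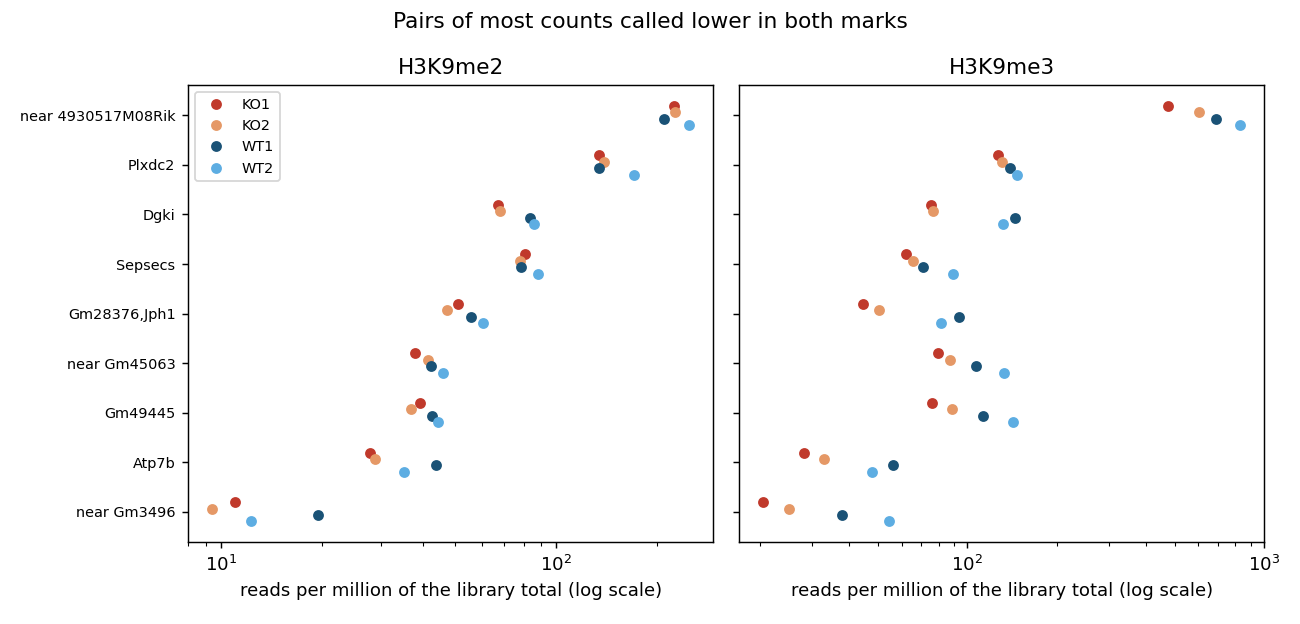
RPM of the library total (log scale) in KO1, KO2, WT1 and WT2 at 9 of the pairs of most reads called lower in both marks, named by the gene they overlap or lie near. Each point is 1 library. In H3K9me3 (right) the KO points lie left of the WT points in all 9, and in H3K9me2 (left) in 6.

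Members with the largest negative fold changes lay mostly on chromosome 13. At chromosome 13, 65681256 to 65681836, 7.78 kb from the pseudogene Gm19428, H3K9me2 counts were 4 and 4 in KO, 10 in WT1 and 68 in WT2. The H3K9me3 counts there were 24 and 28 in KO, 38 in WT1 and 201 in WT2. In the predicted gene Gm36079 (chromosome 13, 120026713 to 120027067) H3K9me3 counts were 8 and 14 in KO, 2 in WT1 and 244 in WT2, so WT1 lay below both KO libraries. Members in Gm26754 (66299946 to 66300346) and on chromosome 7 near Gm6842 (7521067 to 7521609) had H3K9me2 counts of 5 and 6 in KO, 10 in WT1 and 62 in WT2, and of 8 and 10 in KO, 16 in WT1 and 79 in WT2. Partners on chromosome 13 at 66858673, 66429585 and 65484914 had 131, 161 and 154 H3K9me3 reads in WT2 and between 9 and 21 in each other library. The largest negative H3K9me3 change among members whose groups were apart lay near Gm35333 (chromosome 13, partner at 60442357 to 60442775). Counts there were 0 and 2 in KO and 9 and 38 in WT, a WT over KO ratio of 36.4 on TMM-scaled totals, with an exact 95% counting interval of 9.54 to 309.6, and of 18.01 on library totals, where edgeR's adjusted p was 0.102.

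Members higher in KO were few with TMM. A pair of H3K9me2 members in the transmembrane protein gene Tmem267 on chromosome 13 passed the test. At 119601850 to 119602975 the H3K9me2 counts were 859 and 581 in KO and 438 and 162 in WT, and both KO libraries were the highest (log2 fold change 1.05 ± 0.22, SE, adjusted p = 0.00126, and 1.77 with library totals). At 119596626 to 119597128 they were 578 and 384 in KO and 325 and 84 in WT (log2 fold change 1.02 ± 0.23, adjusted p = 0.00308). WT2 was the lowest library at both. The H3K9me3 counts of the first partner were 1251 and 1168 in KO, 1109 in WT1 and 412 in WT2, those of the second were 903, 822, 910 and 283, and neither passed the test.

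In H3K9me3 the 2 higher partners had few WT reads. The one in an intron of Rps6kc1, a kinase-related gene on chromosome 1 (190902699 to 190903018), was covered by 43 and 28 KO reads but 3 and 0 WT reads, a KO over WT ratio of 15.3 on TMM-scaled totals (exact 95% counting interval 5.02 to 75.8, adjusted p = 0.00921 in edgeR) and of 30.9 on library totals. Its H3K9me2 counts were 28 and 53 in KO, 51 in WT1 and 2 in WT2, which overlapped. The partner on chromosome 2 at 100778927 to 100779420, 151 kb from Gm13810, was covered by 46 and 35 KO reads but 0 and 4 WT reads (edgeR adjusted p = 0.00416). Its H3K9me2 counts were 15, 30, 15 and 16.

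With library totals, 15 pairs were called in both marks, 12 of them higher in both and 3 lower in both. Those 3 were also the only pairs called in both marks under both scalings, and in each WT2 was the high library. Of the 12 higher pairs, 6 overlapped Sfi1 or the Pisd pseudogenes Pisd-ps1 and Pisd-ps2, a set singled out after its values were seen. At the Sfi1 member on chromosome 11 from 3184316, H3K9me2 counts were 1462 and 1359 in KO and 1292 and 896 in WT, and H3K9me3 counts were 1641 and 1497 in KO and 1014 and 700 in WT. With library totals the log2 fold changes were 0.82 and 1.26 (adjusted p = 0.0197 and 0.0139), whereas with TMM they were 0.14 and 0.25, and neither passed. The Chl1 satellite-like pair was also among the 12.

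Satellite-like and telomere repeat members gave 1 call between them with TMM. In edgeR 0 of the 17 satellite-like members were called in either mark (3 and 0 reached an unadjusted p under 0.05), and their median log2 difference was 0.28 in H3K9me2 and -0.37 in H3K9me3. With library totals all 17 were above 0 in both marks, where 77.1% of all H3K9me2 and 86.5% of all H3K9me3 regions were, and 5 and 2 were called, where 5.75% and 0.889% were. Among the 12 telomere repeat members, 6 were above 0 in H3K9me2 and 0 in H3K9me3 with TMM, and 12 and 10 with library totals. With TMM 54.6% of all H3K9me2 and 51.6% of all H3K9me3 regions were above 0, so of these counts the H3K9me2 one with TMM and the H3K9me3 one with library totals are near the share of the tables. The called partner, on chromosome 4 near Gm13173, was lower (edgeR adjusted p = 0.0355) with H3K9me3 counts of 52 and 70 in KO, 177 in WT1 and 63 in WT2. The genotypes overlapped in these unscaled counts and with library totals, but not with TMM.

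WT1 and WT2 differed from each other at many members. The labels give the same strain background for every sample and no sex, and whether the cells behind WT1 and WT2 differ in either was not tested. WT2 was more than 2 times WT1 at 151 pairs in H3K9me2, 160 in H3K9me3 and 103 in both. As a share this was 20.9% of H3K9me2 members against 20.5% of all H3K9me2 regions, and 22.3% of partners against 17.2% of all H3K9me3 regions, so the H3K9me2 share is that of the table. WT1 was more than 2 times WT2 at 67 pairs in H3K9me2, 53 in H3K9me3 and 19 in both. This was 9.33% of H3K9me2 members against 16.0% of all H3K9me2 regions, and 7.43% of partners against 16.9% of all H3K9me3 regions. Across the 720 pairs the WT2 minus WT1 log2 difference of one mark followed that of the other (r = 0.68, rho = 0.52), while the KO2 minus KO1 difference did not (r = -0.03). Both are descriptions over regions of the same libraries. The KO over WT change itself had r = 0.54 between the marks, and 0.23 with WT2 left out of both. After scaling, WT2 was more than 4 times every other library in both marks at 32 pairs, of which 19 lay on chromosome 13, 7 on chromosome 12, 5 on chromosome 7 and 1 on chromosome 5. In the bin at 66 Mb of chromosome 13, all 13 members had WT2 above 2 times WT1 in both marks, with median H3K9me3 counts of 12 and 16 in KO, 18 in WT1 and 126 in WT2. In the bin at 115 Mb of chromosome 12, with the Ighv segments, they were 19, 19, 15 and 97.

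WT2 was also the library that lacked signal elsewhere. At 4 pairs, all on chromosome 8, it held under 5% of every other library in both marks. At 20946988, near AY761185, H3K9me3 counts were 311 and 314 in KO, 285 in WT1 and 0 in WT2, and H3K9me2 counts were 120, 131, 148 and 0. In Tusc3, a gene of the oligosaccharyltransferase complex, H3K9me3 counts were 38, 37, 38 and 0. No pair had KO1, KO2 or WT1 in such a position in both marks. On chromosome X, WT1 stood apart from WT2. The median scaled H3K9me2 count of the 52 members there was 20.8 and 27.6 in KO, 13.3 in WT1 and 44.2 in WT2, so both KO libraries lay between the WT libraries.

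**Figure D5:**
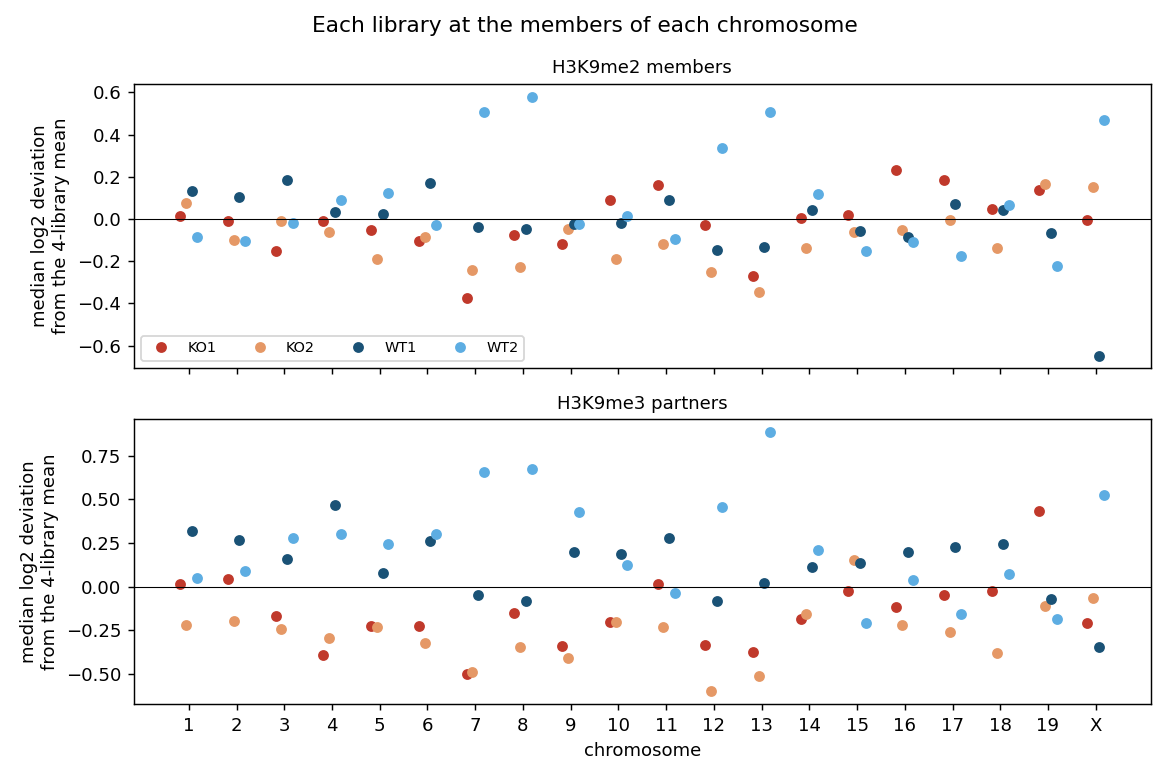
Median log2 deviation of each library from the mean of the 4 libraries (TMM-scaled counts, pseudocount 1) at the H3K9me2 members (top) and H3K9me3 partners (bottom) of each chromosome. WT2 is the highest library on chromosomes 5, 7, 8, 12, 13, 14 and X in both marks, and WT1 is the lowest on X.

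At the edge of the rule, the smallest overlaps were 2 bp, 4 bp and 9 bp, and the smallest gaps outside it were 1 bp, 16 bp and 18 bp. The member with 4 bp, on chromosome X near Mir509, had H3K9me2 counts of 7 and 22 in KO and 14 and 3 in WT. The region with a gap of 1 bp, in Gm26754 on chromosome 13, had H3K9me2 counts of 6 and 9 in KO and 5 and 38 in WT. The median gap of the other H3K9me2 regions to the nearest H3K9me3 region was 45.5 kb.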

How the data were processed

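The submitters' processing notes name BWA 0.7.12, MACS2 2.1.0, DiffBind and the mm10 build as what the authors used on the paired-end reads. The deposited tables hold raw read counts per region and library, and deposited RPM values that equal the count plus 1 over a library total, from which the totals were recovered. Whether that total was scaled by the spike-in, and how duplicates and reads with several placements were handled, is not given in the sources used here. Whether human spike-in reads that align to mouse sequence were kept out of the counts is not given either. The 8 per-sample fold enrichment columns were not used, nor were the authors' log2 fold change, p-value and q-value columns of KO against WT.

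Exact repeat rows (62 and 314) were removed. Coordinates are as deposited, with starts counted from 0. Counts were tested with edgeR 4.0.16 in R 4.3.3 (quasi-likelihood, TMM on library totals, no filter, no block), two-sided, FDR under 0.05. Alternatives were library totals alone, counts in regions, DESeq2 1.42.0 and its size factors, a mean count of at least 10, a replicate block, other thresholds and leaving out each library. The p-values measure the spread between 2 libraries per genotype. Level differences used log2 of the scaled count plus 1. Genes were from GENCODE M21. Satellite similarity was BLAST+ 2.17.0 (expect value 1e-5) against the 3 H3K9me2 regions of the excluded chromosome 2 locus. Python 3.11.15 and scipy 1.17.1 did the rest. On data simulated with 1 common dispersion per mark (0.229 and 0.196) the edgeR fit returned median fold changes close to or below those put in. It called 0 of 200 changed regions at 2 fold in either mark, and 2 in H3K9me2 and 5 in H3K9me3 at 4 fold. Some members of the data were called at changes below 2 fold, so the simulation does not give the power of the real fit. A region not called is not shown to be unchanged.

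Members, gene lists and tests were chosen with earlier results of these data known. Regions were named by rule: for each mark the 4 largest changes in each direction with FDR under 0.05 and genotypes apart, members called in both marks (up to 10), the 5 with most RPM per kb, the 3 widest, the 3 with most summits, the fullest 5 bins, and 2 per gene family with at least 3 members. The Sfi1 and Pisd members, the chromosome 4 telomere repeat, the chromosome 8 members low in WT2 and the chromosome 12 bin were named after their values were seen. Counting intervals cover counting error only. Some results are not reported here.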

Additional observations from a re-analysis of the deposited data

How the results depend on the processing

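Library totals alone turned the split of calls, to 69 H3K9me2 members (66 higher) and 27 H3K9me3 partners (19 higher), and the medians, to 0.59 and 0.57; TMM removes the shift shared by all regions. Of the 31 H3K9me2 calls, 20 calls were made by DESeq2 (0 higher, where 9 reached an unadjusted p under 0.05), which gave an adjusted p to 189 of the 718 members, and 10 at FDR 0.01. Counts in regions as library size gave 30 partner calls instead of 63 and a partner median of -0.07 instead of -0.42. Members whose 31-base words all occur once, also added after seeing the data, had medians of -0.39 and -0.55, with no such medians for the whole tables beside them. Leaving out 1 library gave between 0 and 87 H3K9me2 calls and between 0 and 168 partner calls, medians from -0.17 to 0.013 (without WT2) and from -0.50 to -0.36, and read share differences from 0.754 to 1.18 and from 1.37 to 1.39 points. Genes extended by 5 kb were overlapped by 57.8% of members. The replicate block gave 29 and 47 calls. Deviations of same-numbered libraries had r = 0.03 and 0.004 over all regions. The median region there had a mean count of 16.75 and 15.75, so this check does not settle whether the numbers pair the libraries. Without the satellite, telomere repeat and rRNA members, another alternative added after seeing the data, 31 and 62 calls were left. Apart from library totals, the share of all regions called under these alternatives is not given, so their numbers are not read as particular to members. Depth limits single members: 230 H3K9me2 members had a mean count under 20, and edgeR called 0 of them (19 lower and 1 higher at an unadjusted p under 0.05), while 3 lower and 1 higher of the 153 partners under 20 were called.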
